A study of Mus musculus with 6 samples.

Results

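Germline genes of the piRNA pathway and of meiosis were examined in mouse embryonic stem (ES) cells engineered to overexpress Prdm14 and in cells with a control vector. The set held 10 genes, taken by name from the array's annotation: Piwil2, Dazl, Ddx4, Mael, Stk31, Asz1, Taf7l, Slc25a31, Sycp3 and Tex19.1. Of these, 7 had a named probe, 1 each, among the 9166 genes with a named probe, and all 7 were among the 8529 genes tested. Both groups were ES cells of a 129P2 background grown in serum, and the study made the stable overexpressing lines in a parental line with a Rex1-GFPd2 reporter, also written Zfp42-GFPd2. Total RNA was collected from 3 consecutive passages of Prdm14 overexpressing cells and 3 of control vector cells, and each sample was hybridised to an Illumina Mouse WG-6 BeadChip. The promoter of the construct and the number of clones are not given in the sources used here, so a difference between the lines cannot be told apart from an effect of Prdm14, and p-values measure the spread between passages.

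piRNAs are small RNAs that guide Piwi proteins to transposon transcripts in germ cells, where the targets are cut or their genes are silenced. Many genes of this pathway and of meiosis have CpG-rich promoters that are methylated in somatic cells and lose that methylation in primordial germ cells. ES cells transcribe some of them, and PRDM14, a PR domain protein of germ cells and pluripotent cells, is known to repress the DNA methyltransferase machinery. A second layer of repression in ES cells is a Polycomb complex, PRC1.6, that is brought to such promoters by E2F6 and by MGA with MAX.

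Promoters are shown because CpG content and these repressors' motifs can be read from them, for a gene that rose beside genes that did not pass the test. RefSeq (GRCm38.p6) gave a start for 9 of the 10 genes, all but Piwil2. The 250 bases before the start held 12 to 31 CpG dinucleotides in the 10 windows of these genes (Stk31 had 2 starts), against a median of 6 over 32851 windows of all genes, of which 33.5% held at least 12. The windows were searched on both strands for CACGTG, the E-box read by MGA and MAX, and for TCCCGC, the E2F core. CACGTG lay in 6 of the 9 genes (Ddx4, Mael, Stk31, Taf7l, Slc25a31 and Sycp3) and in 6.0% of all windows, TCCCGC lay in 4 (Ddx4, Mael, Sycp3 and Tex19.1) and in 16.9% of all windows, and Dazl and Asz1 held neither. Both motifs contain a CpG, and the shares are over windows of every CpG content. No share was taken among CpG-rich windows alone, so an excess cannot be told apart from CpG content. A match is only a run of letters, and matches of the motifs did not overlap in these windows. Below are Dazl, which rose with Prdm14 (chr17:50293621-50293870, minus strand), Tex19.1, which did not pass the test although its signal was strong on all arrays (chr11:121145893-121146142, plus strand), and Ddx4, which did not pass and holds both motifs (chr13:112652311-112652560, minus strand). Each is written 5′ to 3′ up to the base before the start, with motif matches on either strand in capitals. The start used for Ddx4 lies inside the RefSeq span of the gene, which ends at 112652633, so its window falls within that span. The windows of Stk31 and Taf7l overlap the spans of their genes in part.
Dazl: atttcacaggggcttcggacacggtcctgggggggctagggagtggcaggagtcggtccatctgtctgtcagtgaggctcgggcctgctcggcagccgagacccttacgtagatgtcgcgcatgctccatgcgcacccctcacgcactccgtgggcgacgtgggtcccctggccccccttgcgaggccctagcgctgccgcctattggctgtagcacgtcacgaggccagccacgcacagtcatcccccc
Tex19.1: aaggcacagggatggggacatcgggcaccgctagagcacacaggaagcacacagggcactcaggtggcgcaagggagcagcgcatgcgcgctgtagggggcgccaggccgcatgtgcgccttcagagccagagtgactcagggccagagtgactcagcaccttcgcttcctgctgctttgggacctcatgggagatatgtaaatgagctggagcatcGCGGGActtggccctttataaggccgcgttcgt
Ddx4: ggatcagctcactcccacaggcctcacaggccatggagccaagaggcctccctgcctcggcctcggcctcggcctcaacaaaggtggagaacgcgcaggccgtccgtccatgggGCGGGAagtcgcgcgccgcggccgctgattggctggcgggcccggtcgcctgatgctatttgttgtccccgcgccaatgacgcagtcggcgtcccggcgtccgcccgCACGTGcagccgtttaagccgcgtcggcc

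The labels were checked by Prdm14 itself. Probe ILMN_1222112 read 14907, 10751 and 11016 in overexpressing cells, against 801, 673 and 855 in control cells. After normalization it was higher by 3.86 ± 0.12 log2 units (SE, 3 arrays each; limma adjusted p = 1.01e-06). All 11 ES cell markers were tested, and none passed an adjusted p of 0.01, at which a change is called here. After normalization all overexpression arrays lay above all control arrays for 5 of the 11 and below for 1, beside 14.7% and 15.3% of all tested genes. Background was brighter on the overexpression arrays: the median signal of probes that were never detected was 81.2, 73.3 and 73.6 in overexpressing cells, against 59.6, 61.3 and 62.8 in control cells. Signals below are the deposited values, which include this background, and log2 values are after background correction and quantile normalization. All 7 measured germline genes had their highest raw signal on overexpression array 1, which also had the brightest background.

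Piwil2 and Dazl rose in Prdm14 overexpressing cells, by 2.36-fold and 2.20-fold, and were the only genes of the set to pass the test. Thus 2 of 7 tested genes of the set were called higher and none lower, where 1.66% of all tested genes were called higher and 2.67% lower (370 of 8529 in all, 4.34%). The study itself picked out both as raised genes from the same samples, and their direction therefore cannot count as independent evidence. In bulk RNA, more expressing cells and more RNA per cell cannot be told apart.

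Piwil2 encodes MILI, a Piwi protein that binds piRNAs and cuts transposon transcripts. Its signal was 700.0, 503 and 491 in overexpressing cells, against 213, 217 and 234 in control cells. The lowest overexpression array was thus above the highest control array, and the probe was detected on all 6 arrays. On the normalized log2 scale Piwil2 averaged 8.83 ± 0.13 in overexpressing cells and 7.59 ± 0.07 in control cells (SD, n = 3 each), a difference of 1.24 ± 0.10 (SE; 95% interval 1.00 to 1.47; limma adjusted p = 0.000251).

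Dazl encodes an RNA-binding protein that controls translation and prepares germ cells for gametogenesis. It gave signals of 1727, 1421 and 1439 in overexpressing cells, against 622, 608 and 589 in control cells, again without overlap. The normalized means were 10.40 ± 0.06 in overexpressing cells and 9.26 ± 0.17 in control cells (SD, n = 3 each), and the difference was 1.14 ± 0.11 (SE; 95% interval 0.88 to 1.39; limma adjusted p = 0.000616).

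**Figure D1:**
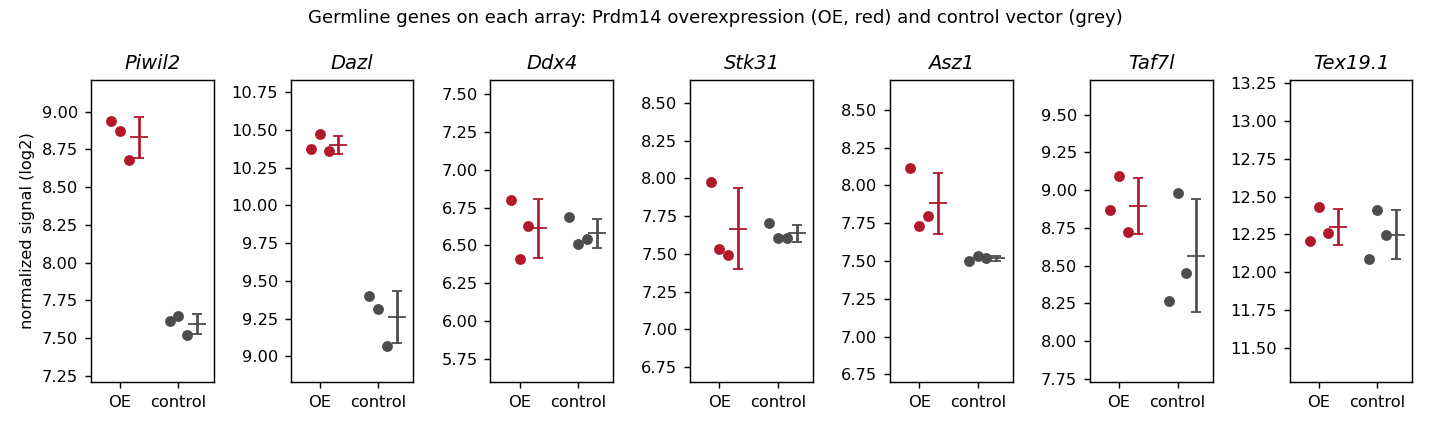
Normalized log2 signal of the 7 measured germline genes on each array, with Prdm14 overexpression (OE, red) left of control vector (grey). Points are arrays, bars are mean ± SD (n = 3), and each panel spans 2 log2 units around its own centre. Piwil2 and Dazl stand clear of the control arrays, Asz1 does so by less, and the groups overlap for the other 4 genes.

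The other piRNA pathway genes of the set did not pass. Asz1 encodes GASZ, a mitochondrial membrane protein that anchors the granules in which piRNAs are made. Its signal was 428, 259 and 296 in overexpressing cells, against 201, 204 and 234 in control cells. After normalization all 3 overexpression arrays still lay above the control arrays, so that 3 of the 7 genes of the set (Piwil2, Dazl and Asz1) were separated upwards and none downwards, beside 14.7% and 15.3% of all tested genes (29.9% in either direction). The difference was 0.36 ± 0.12 log2 units (SE, n = 3 each; 95% interval 0.10 to 0.63; limma adjusted p = 0.0922).

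Ddx4 encodes the RNA helicase MVH (VASA) of germ cell granules, which acts in piRNA production. Its signal lay near background, with 212, 140 and 165 in overexpressing cells, against 136, 126 and 143 in control cells, and detection p-values of at most 0.00427. The groups overlapped, and normalized values differed by 0.03 ± 0.12 (SE, n = 3 per group; 95% interval -0.24 to 0.31; limma adjusted p = 0.921). Stk31, a Tudor domain protein with a kinase-like domain, gave 395, 232 and 253 in overexpressing cells, against 224, 212 and 245 in control cells. Array 1 alone was high among the overexpression arrays (7.98 in normalized log2, against 7.53 and 7.49 on the other 2), and the control arrays at 7.61 to 7.70 lay between them. The difference was 0.03 ± 0.14 (SE, n = 3 per group; 95% interval -0.28 to 0.34; adjusted p = 0.937), and -0.12 without overexpression array 1.

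Tex19.1, a mammalian germline and placental gene that restrains retrotransposons, was read with strong signals in both groups. They were 5838, 5391 and 4963 in overexpressing cells, against 3762, 5236 and 4980 in control cells. Only control array 1 was lower than the rest, and after normalization the groups overlapped, at 12.30 ± 0.12 in overexpressing cells and 12.25 ± 0.16 in control cells (SD, n = 3 each). The difference was 0.05 ± 0.12 (SE; 95% interval -0.21 to 0.31; limma adjusted p = 0.858), so that a rise of the size of that of Dazl lies outside its interval. The probe of its paralogue Tex19.2, named here after its values were seen, differed by -0.15 ± 0.12 (adjusted p = 0.509). Probe sequences were not used here, so it was not checked whether either probe also reads the other gene.

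Taf7l encodes the germ cell counterpart of TAF7, a subunit of the general transcription factor TFIID. Its signal was 674, 574 and 505 in overexpressing cells, against 305, 489 and 399 in control cells. The raw groups did not overlap, but after normalization control array 2 (8.98) lay above overexpression arrays 1 (8.87) and 3 (8.72). The difference was 0.33 ± 0.18 log2 units (SE, n = 3 each; 95% interval -0.09 to 0.75; limma adjusted p = 0.321).

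No value was obtained for Mael, a transposon silencing factor, Slc25a31, the ADP/ATP carrier of meiotic germ cells, and Sycp3, a component of the axial elements of the synaptonemal complex. The annotation used covers the 15944 probes detected on at least 1 array, and it assigned none of them to these 3 genes, while 2160 of them had no symbol. Whether their probes stayed at background or were among the unnamed ones is thus not known. None of the 7 measured genes was undetected: each was above the negative control beads on all 6 arrays.

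Across the 7 genes, differences ran between 0.03 and 1.24 with a median of 0.33, beside a median of -0.0016 over all tested genes. All 7 were positive, as were 49.7% of all tested genes, but for Ddx4, Stk31 and Tex19.1 the sign changed when single arrays were left out. Scaling the arrays to a common median in place of quantile normalization put the median of all tested genes at 0.11 in place of -0.0016. Under that scaling the differences were 1.38 for Piwil2 and 1.26 for Dazl, without correction for that shift.

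**Figure D2:**
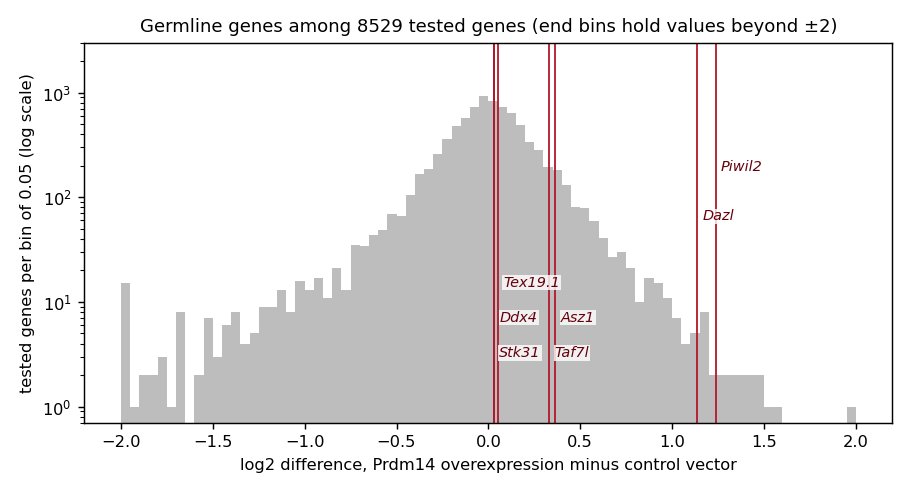
Histogram of the log2 difference (overexpression minus control) of the 8529 tested genes, with a logarithmic count axis, and the 7 measured germline genes as red lines. Piwil2 (1.24) and Dazl (1.14) lie in the sparse upper tail, Asz1 (0.36) and Taf7l (0.33) on its shoulder, and Ddx4, Stk31 and Tex19.1 (0.03 to 0.05) near the centre.

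Other genes of the piRNA pathway moved in both directions. Of 22 listed, 8 were tested, of which 1 rose and 1 fell, beside 1.66% and 2.67% of all tested genes, and the median difference was 0.19. The overexpression arrays lay wholly above the control arrays for Tdrkh and wholly below for 2 genes, Tdrd12 and Piwil1. Over all tested genes these shares were 14.7% and 15.3%. Piwil1 differed by -0.12 (limma adjusted p = 0.469), whereas its other probe differed by 0.14, in the opposite direction. Tdrkh, a mitochondrial Tudor protein that partners Piwi proteins while piRNA ends are trimmed, rose by 0.76 ± 0.14 on the log2 scale (8.95 ± 0.26 in overexpressing cells and 8.20 ± 0.05 in control cells, SD, n = 3 each; limma adjusted p = 0.00911). Its other probe differed by 0.65. Tdrd12, a Tudor domain helicase of the same pathway, fell by 0.51 ± 0.09 (11.31 ± 0.03 in overexpressing cells and 11.82 ± 0.07 in control cells; adjusted p = 0.00902). The helicase gene Mov10l1, which acts early in piRNA production, differed by 0.30 ± 0.13 (adjusted p = 0.198) and the Tudor domain gene Rnf17 by 0.27 ± 0.15 (0.314). Both calls lay close to the threshold. That of Tdrd12 was lost with median scaling (0.0337) and on leaving out any 1 of the 6 arrays, where the difference ran from -0.55 to -0.48 and adjusted p from 0.0249 to 0.0464, and that of Tdrkh on leaving out overexpression array 1, overexpression array 2 or a control array (0.0245 to 0.0366), with cyclic loess, without the detection filter (0.0166) and with its probes averaged (0.0171).

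Among other genes of meiosis, 3 of 19 tested (of 39 listed) rose and none fell. Across all tested genes these shares were 1.66% and 2.67%. The median difference of the 19 was 0.24, beside -0.0016 over all tested genes. For 8 of the 19 all overexpression arrays lay above all control arrays, beside 14.7% of all tested genes, and for 2 (Mnd1 and Psmc3ip, at -0.34 and -0.11) they lay below, beside 15.3%. The 8 include Meioc, which passed the detection filter only through its overexpression arrays, so its separation cannot count as support. Brdt, a testis bromodomain protein, rose by 0.79 ± 0.11 log2 units (SE, n = 3 per group; limma adjusted p = 0.00279), and its probe was detected on 2 of the 3 control arrays. Tex14, a component of the bridges between germ cells, rose by 0.78 ± 0.13 (adjusted p = 0.00547). Spata22, a partner of MEIOB in meiotic recombination, rose by 0.74 ± 0.10 (adjusted p = 0.00312). Its control mean lay near background, at 6.53 in normalized log2, where the lowest detected values of the control arrays were 6.16 to 6.27. Meioc, which maintains the meiotic programme, was not above background on any control array and did not pass (limma adjusted p = 0.0254). The lower bound on the fold between its means was 1.17, given without an interval. For this bound the mean of overexpressing cells was set against, per control array, the higher of the lowest detected value and the probe's own. The meiotic cohesin gene Rec8 differed by 0.43 ± 0.12 (0.0637).

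These 3 calls were lost with some arrays left out, while the differences stayed at 0.72 to 0.87 for Brdt, 0.68 to 0.82 for Spata22 and 0.71 to 0.89 for Tex14. Leaving out any array also took the calls over all genes to between 142 and 242, against 370. Brdt lost its call on leaving out any overexpression array or control array 3 (adjusted p between 0.0103 and 0.0128), Spata22 on leaving out overexpression array 1, overexpression array 2, control array 1 or control array 3 (0.0136 to 0.0193), and Tex14 without overexpression array 1, overexpression array 2 or a control array (0.0154 to 0.0244), and also without the detection filter (0.0104). In the authors' normalized table, with columns matched to arrays, the differences were smaller, at 0.28 for Brdt (adjusted p = 0.0145), 0.29 for Spata22 (0.0131) and 0.42 for Tex14 (0.00394).

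**Figure D3:**
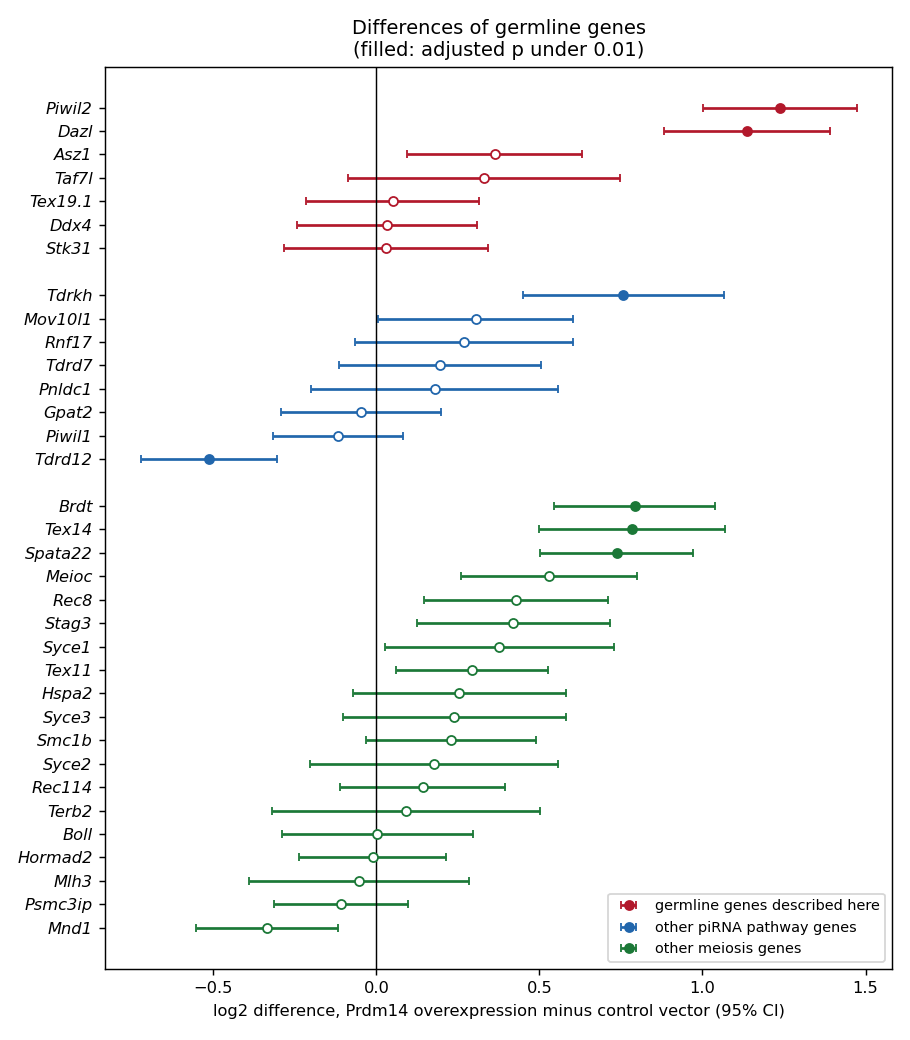
Log2 difference (overexpression minus control) with its 95% interval for the 7 measured germline genes (red), 8 other piRNA pathway genes (blue) and 19 other meiosis genes (green). Filled points passed an adjusted p of 0.01: Piwil2, Dazl, Tdrkh, Brdt, Tex14 and Spata22 were higher and Tdrd12 was lower in overexpressing cells.

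Somatic counterparts of germline genes showed no called change. The list includes cohesin genes, which have no counterpart in the set, and Slc25a5, whose counterpart Slc25a31 had no value. Of 8 tested, among them the TFIID subunit gene Taf7, none passed, the median difference was 0.10, and the largest differences were 0.14 ± 0.16 for the RNA helicase gene Ddx3x (limma adjusted p = 0.665) and 0.14 ± 0.11 for the ADP/ATP carrier gene Slc25a5 (0.506). Genes of the PRC1.6 complex did not pass either. None of 13 tested was called, with a median of -0.02, and differences of 0.31 ± 0.11 for Wdr5 (0.107), -0.22 ± 0.14 for Max (0.396), -0.19 ± 0.12 for E2f6 (0.403) and -0.11 ± 0.11 for Mga (0.602), where E2f6 and Mga were named for their role after their values were seen. The other E2f6 probes differed by -0.34 to -0.03, with a lowest limma p, adjusted over probes, of 0.0830. At an unadjusted p under 0.05, 2067 of the 8529 genes passed.

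Markers of other cell types were read in the same way. Of 12 late germ cell markers, the spermatid and spermatocyte genes included, only 2 had a named probe: the ciliary gene Tekt1 differed by 0.35 ± 0.17 (limma adjusted p = 0.252) and the lactate dehydrogenase gene Ldhc by -0.03 ± 0.10 (0.906). The other Tekt1 probe differed by 0.46 ± 0.12 (limma p adjusted over probes = 0.0456), and other Ldhc probes by 0.12 and -0.29. The summed raw signal of Tekt1 and Ldhc, from the probe of highest mean of each, was 676 to 976 in overexpressing cells and 503 to 631 in control cells, on arrays whose background differed in the same direction. Of 5 tested primitive endoderm markers (of 12 listed) none passed, 4 differed upwards and 1 downwards. All overexpression arrays lay above all control arrays for 2 of them and below for 1, beside 14.7% and 15.3% of all tested genes. The laminin gene Lama1, at -0.98 ± 0.18, lay at the threshold (adjusted p = 0.0102) and passed it with the replicate number as a block (0.000981), an offset of 50, cyclic loess, median scaling, uncorrected background, detection on all arrays of a group, trended robust variances and the authors' normalized table matched to arrays (0.000495 to 0.00986 over these). The difference was 0.66 ± 0.17 for the collagen gene Col4a2 (0.0440, or 0.00396 with the block). The summed raw signal of the 5 was 4663 to 5867 in overexpressing cells and 3774 to 4597 in control cells. Of 3 tested fibroblast markers (of 9 listed) Acta2, not above background on any overexpression array, fell by at least 2.93-fold and the matrix gene Fbln2 rose by 0.89 ± 0.14 (limma adjusted p = 0.000184 and 0.00495), with a summed raw signal of 712 to 1042 in overexpressing cells and 631 to 891 in control cells. The Fbln2 call was lost on leaving out overexpression array 1, overexpression array 3 or a control array (limma adjusted p 0.0155 to 0.0244). It was also lost without the detection filter (0.0117). Among ES cell markers Dppa2 differed by 0.67 ± 0.13 (adjusted p = 0.0134), which passed with the block (0.00872), median scaling, no background correction, an offset of 50, trended robust variances and the matched normalized table (0.000751 to 0.00872 over these), whereas Tdgf1 differed by 0.34 ± 0.11 (0.0950). The raw signals of the 11 summed to 87675 to 100670 in overexpressing cells and 73783 to 85586 in control cells, while their median normalized difference was 0.07. None of these raw sums is normalized. The median signal over all probes was also higher on the overexpression arrays (86.9 to 100.5, against 72.2 to 78.5). The 8 somatic counterparts, none called, likewise summed to 24968 to 29858 in overexpressing cells and 22100 to 24865 in control cells. The part of other cell types in the values of Piwil2 and Dazl was not tested.

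The genes whose normalized values over the 6 arrays were most like those of Piwil2 were Myom3, Clgn and Ppp1r14b (Pearson r = 0.996, 0.996 and 0.995), with log2 differences of 1.21, 0.75 and 0.35. For Dazl they were Rbfox3, Ppp1r14d and Tmem150a (r = 0.996, 0.995 and 0.994), with differences of 1.46, 0.61 and 0.66. The measure does not take the size of a difference into account, the 6 arrays fall into 2 groups, and the values are a description without a test.

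The calls of Piwil2 and Dazl held with any 1 array left out and under every processing of the signals that was tried. With 1 array left out at a time the difference was 1.18 to 1.32 for Piwil2 and 1.04 to 1.21 for Dazl. Over these and all other alternatives except the deposited sample names, adjusted p ran from 6.00e-06 to 0.00295 for Piwil2 and from 2.00e-06 to 0.00346 for Dazl. The size of the Piwil2 rise depended on the table used, at 0.77 in the authors' normalized table, with columns matched to arrays, while that of Dazl was 0.99. No alternative called any of the other 5 genes, whose lowest adjusted p was 0.0529 for Taf7l.

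**Figure D4:**
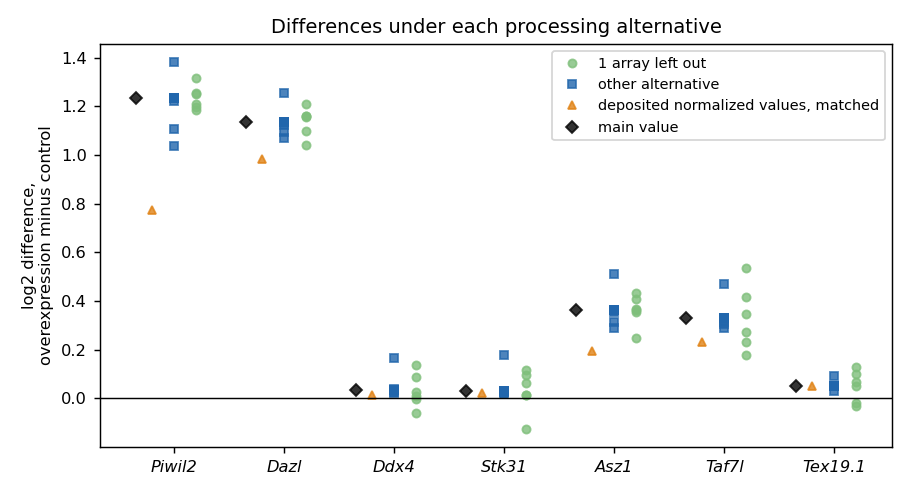
Log2 difference (overexpression minus control) of the 7 measured germline genes as reported (black), with 1 array left out (green), in the authors' normalized table, with columns matched to arrays (orange) and under the other alternatives (blue), with the deposited sample names left out. Piwil2 stays between 0.77 and 1.38 and Dazl between 0.99 and 1.26, whereas Ddx4, Stk31 and Tex19.1 scatter around 0.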

How the data were processed

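The authors deposited bead signal intensity per probe on a linear scale, without background subtraction, for 45281 probes on 6 arrays. The authors deposited a detection p-value beside each signal, which ranks the probe against negative control beads. They also deposited normalized log2 values, made with lumi per the submitters' processing notes (version not given in the sources used here). Of the 6 columns of normalized values, 4 matched another array than the one named (r = 0.971 to 0.972 with the best array) and 2 of these lay in the other group, so this table served only as an alternative, under its deposited names and matched to arrays by values.

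Background was removed with neqc (R 4.3.3, limma 3.58.1), which infers the negative controls from the detection p-values, adds an offset of 16, equalises quantiles and takes log2. The fit (lmFit, then eBayes, no replicate block) used the 14604 probes that were detected, at p under 0.01, on 3 or more arrays. Each gene took the fitted probe of highest mean, and p-values were adjusted over the 8529 genes by Benjamini-Hochberg, with a threshold of 0.01. Each array detected 31.1% to 32.6% of probes, and correlations ran from 0.990 to 0.994 within a group and from 0.978 to 0.983 between groups. With 3 arrays a group, their number limits the precision. The statistics were tested on simulated data.

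Deviations from the group means correlated at r = 0.121, 0.390 and 0.324 between same-numbered arrays of the 2 groups, the numbers coming from the sample titles. Between arrays of different number r ran from -0.311 to 0.0582, and these values are not independent of each other. A fit with the replicate number as a block was an alternative. Symbols came from the platform annotation (13778 probes with 1 symbol, 6 with several, 2160 with none), 13765 of them matched to RefSeq by gene identifier (GRCm38.p6, used for names and promoter sequences). Genes named are the 10 of the set, Prdm14, and from each list the called genes and the 2 largest other differences, beside the 3 genes most like each called gene of the set. The genes and lists were chosen with earlier results of these data known. Other alternatives were cyclic loess, median scaling, an offset of 50, signals without background correction, other detection filters, averaged probes, trended robust variances and each array left out.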

Additional observations from a re-analysis of the deposited data

How the results depend on the processing

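Of 8529 tested genes 370 passed, 142 higher and 228 lower in overexpressing cells; under median scaling the split was 222 higher and 154 lower. The count was 142 to 242 with 1 array left out, which leaves fewer samples, 616 with trended robust variances (the cause was not tested), and 503 with the replicate block, which changed no call among the 7 germline genes or the other piRNA pathway and meiosis genes. Under the deposited sample names of the normalized table, where 2 columns stand in the other group, 0 genes and 0 of the 7 germline genes passed with limma (233 genes at an unadjusted p under 0.05), and the difference of Tex19.1 turned to -0.066. Over the remaining 16 alternatives Piwil2 and Dazl, 2 of 7, were called each time. Signs near 0 turned with single arrays left out: Ddx4 ranged from -0.060 to 0.13 (below 0 without overexpression array 1 or control array 2), Stk31 from -0.12 to 0.12 (without overexpression array 1) and Tex19.1 from -0.031 to 0.13 (without overexpression array 2 or control array 1). The signal of Ddx4 was close to background, which limits what its probe can show.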
